A study of Rattus norvegicus with 11 samples.

Results

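The rows described here are the mature arms of the rat microRNA miR-21, rno-miR-21-5p and rno-miR-21-3p, 2 rows of the 1331 in a microRNA table of rat liver. They were picked by name, and both stood above the filter on low values (on average 1 count or more per 1000000 reads, CPM). All rats were male rats of the outbred Sprague-Dawley stock, started at 4 weeks old, and small RNA of the liver was sequenced after 7 days. The 6 Control rats received chow and intravenous 0.9% saline. The 5 TPN rats received total parenteral nutrition, that is, feeding wholly through a vein. Each rat is called by its group and its number in the labels.

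MicroRNAs are cut from a hairpin as a short duplex. An Argonaute protein usually keeps 1 arm, which guides it to transcripts that pair with the seed, bases 2 to 8 of the arm, and most of the other arm is degraded. In miR-21 the kept arm is mainly the 5p arm, which is known to repress Pdcd4, an inhibitor of protein synthesis and growth. Transcription of the gene is known to be raised by STAT3 and AP-1, and miR-21 is widely studied in injured and fibrotic liver, where hepatocytes, stellate cells and immune cells all express it.

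The sequences below show what separates the arms. The gene Mir21 lies on chromosome 10, minus strand, of the RefSeq assembly GRCr8 (chr10:71902600-71902691), between Tubd1 and Vmp1. The deposited table names no build, so these positions belong to RefSeq only. In the arms the seed is in capitals, and in the hairpin both arms are in capitals.
rno-miR-21-5p: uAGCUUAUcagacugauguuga
rno-miR-21-3p: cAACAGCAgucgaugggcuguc
rno-mir-21 hairpin: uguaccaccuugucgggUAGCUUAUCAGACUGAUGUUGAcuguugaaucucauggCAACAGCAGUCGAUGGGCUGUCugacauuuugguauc
The seeds differ, so the arms address different transcript sites: AUAAGCU pairs with the 5p seed and UGCUGUU with the 3p seed. The arms are 22 bases long each, with G or C at 36.4% of the bases of the 5p arm and 59.1% of the 3p arm. They occupy bases 18 to 39 and 56 to 77 of the hairpin, with 16 bases between them. RNAfold placed 19 base pairs between the arms in a structure of -42.6 kcal/mol, which pairs all 7 seed bases of the 5p arm and 6 of the 3p arm. Of the 693 mature rat sequences in the RefSeq table, no other had the same bases 2 to 8, or even 2 to 7, as either arm. That table held a sequence for 481 of the 533 rows with rat microRNA names, so the remaining names could not be compared.

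The libraries held between 1404858 (Control 12) and 14788757 (TPN 8) recovered reads. Control 5, 12 and 19 stood apart, with the fewest reads and with 0.517% to 2.0% of them in rows of predicted microRNAs, against 0.0965% to 0.145% in the other 8 libraries. The group comparisons of both arms and of their ratio are given with and without them. Hepatocyte microRNAs marked the tissue: each of the 12 rows of that list (among them miR-148a-3p, miR-122-5p and miR-192-5p) was detected in every library. The labels name no batch, and each sample is named as a separate rat.

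miR-21-5p was among the most abundant microRNAs of every liver, and its level did not differ between the groups beyond the spread between rats. It ranked between 2 and 4 in every library and 3rd by its mean. In TPN the levels were 73838 CPM in TPN 6, 74896 CPM in TPN 16, 78128 CPM in TPN 8, 86121 CPM in TPN 15 and 98547 CPM in TPN 11. In Control the lowest level was 46416 CPM (Control 16), the median 64638 CPM and the highest 211294 CPM (Control 7). The TPN rats thus sat close together inside the Control range: 4 of the 6 Control rats lay below the lowest TPN rat, 1 (Control 12, 95385 CPM) within the TPN range and 1 above it. Counting error was small beside this, since the exact Clopper-Pearson 95% interval of the arm's share of a library spanned at most 0.0972 percentage points. From lowest to highest, Control 16 was followed by Control 19 (60735 CPM), Control 5 (61290 CPM), Control 18 (67985 CPM), TPN 6, TPN 16, TPN 8, TPN 15, Control 12, TPN 11 and Control 7. From Control 19 up to TPN 11, no neighbours in this order lay farther apart than the TPN standard deviation (10276 CPM), while Control 16 and Control 7 did from theirs.

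**Figure D1:**
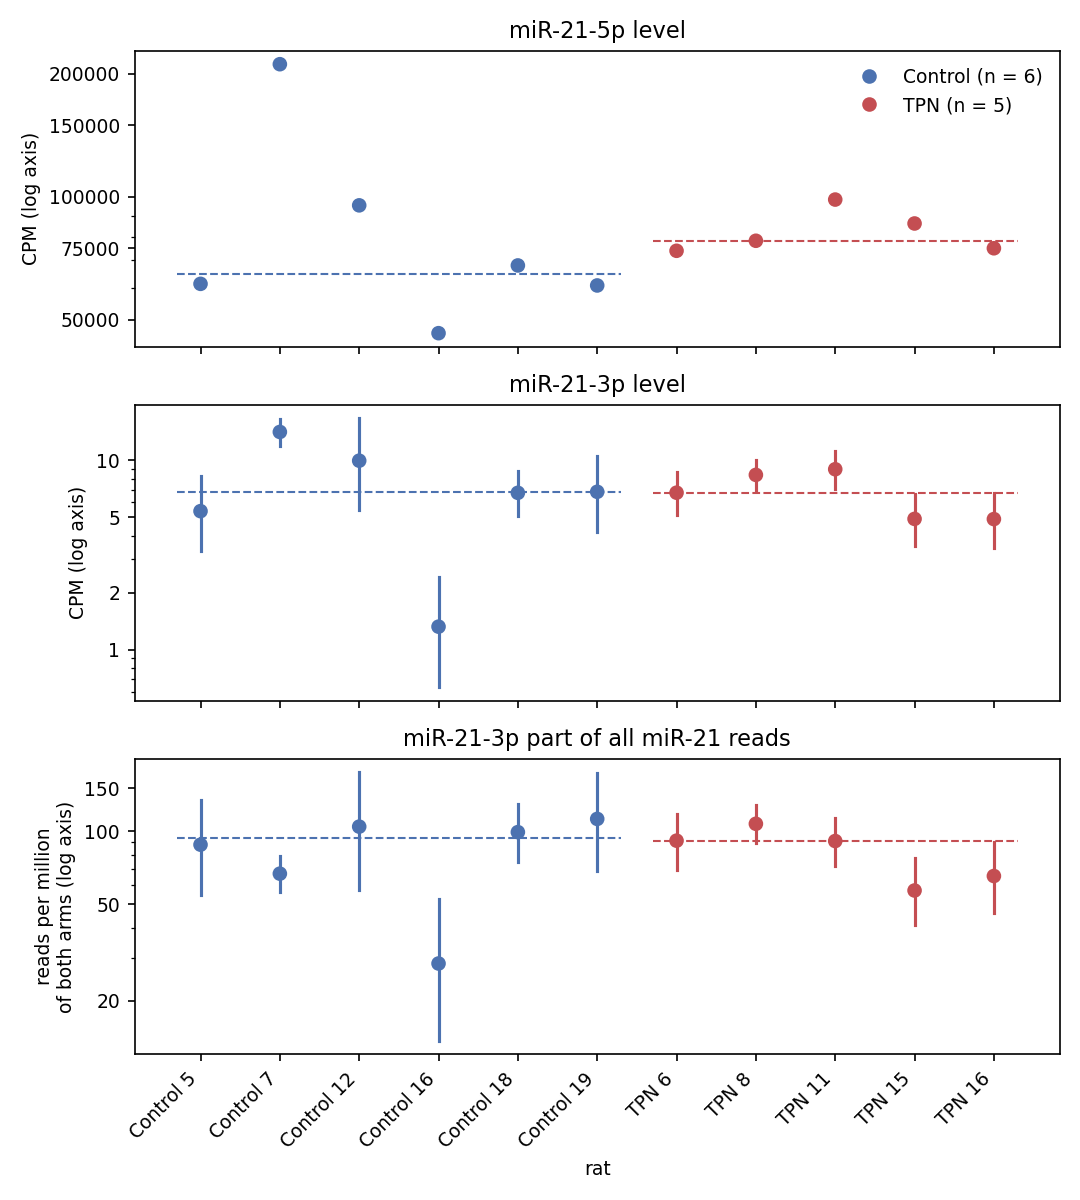
Level of miR-21-5p, level of miR-21-3p and the 3p part of all miR-21 reads in each of the 11 rats, on log axes; dashed lines are group medians and vertical bars are exact Clopper-Pearson 95% intervals (counting error only, not drawn for miR-21-5p, where they are smaller than the points). Control 7 stands highest in both levels, Control 16 lowest in both levels and in the 3p part, and in both level panels the TPN rats sit between them.

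The mean level of miR-21-5p was 82306 CPM in the TPN rats (SD 10276, n = 5) against 90518 CPM in the Control rats (SD 61326, n = 6), while the TPN median of 78128 CPM was above the Control median. The mean and the median therefore point in opposite directions. The log2 fold change on the log2(CPM + 1) scale was 0.06 ± 0.34 (SE), with an adjusted p of 0.962 (limma-trend, Benjamini-Hochberg over 535 rows). Its 95% interval ran from 0.620-fold to 1.74-fold. This is the range of changes that these 11 rats leave possible on the deposited scale, and other scalings moved it. In this comparison 0% of the 535 rows passed at an adjusted p under 0.05 in either direction. Without Control 5, 12 and 19 the log2 fold change of miR-21-5p was -0.095 (limma-trend, adjusted p = 0.937). At an unadjusted p under 0.05, 0.187% were higher and 11.2% were lower in TPN, and neither miR-21 arm was among them. For both arms the groups overlapped; 0% of the rows had every TPN rat above every Control rat, and 1.5% had every TPN rat below. DESeq2 called 5 rows higher and 108 lower and edgeR called 0 at that adjusted threshold (168 rows had an unadjusted p under 0.05 with edgeR), and the adjusted p of miR-21-5p was 0.703 with DESeq2 and 0.649 with edgeR.

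miR-21-3p was rare, and it too showed no group difference beyond the spread between rats. In TPN its levels were 4.90 CPM in TPN 16, 4.91 CPM in TPN 15, 6.75 CPM in TPN 6, 8.38 CPM in TPN 8 and 8.98 CPM in TPN 11. In Control the lowest level was 1.32 CPM (Control 16), the median 6.78 CPM and the highest 14.1 CPM (Control 7). The groups overlapped: 3 Control rats lay within the TPN range, 1 below it and 2 above. In TPN miR-21-3p averaged 6.79 CPM (SD 1.90, n = 5), the Control mean was 7.40 CPM (SD 4.33, n = 6), and the log2 fold change was 0.06 ± 0.42 (SE; limma-trend, adjusted p = 0.962; 95% interval 0.552-fold to 1.97-fold). Without Control 5, 12 and 19 it was 0.23 (limma-trend, adjusted p = 0.918).

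These levels of miR-21-3p rest on few reads, from 10 in Control 16 and 14 in Control 12 to 144 in Control 7, 600 in all. The exact Clopper-Pearson 95% interval was 0.635 to 2.44 CPM in Control 16, which overlapped that of none of the other 10 rats. It was 11.9 to 16.6 CPM in Control 7, which overlapped only that of Control 12 (5.45 to 16.7 CPM). Among the other 9 rats, the intervals of TPN 8 and TPN 11 did not overlap those of TPN 15 and TPN 16, and the remaining ones all overlapped. Reads carried no stated molecular identifiers, so these intervals cover counting error only.

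Nearly all miR-21 reads were 5p reads in every liver. In TPN the 5p reads per 3p read numbered 9318 in TPN 8, 10936 in TPN 6, 10974 in TPN 11, 15288 in TPN 16 and 17538 in TPN 15. In Control the ratio ran from 8898 (Control 19) through a median of 10722 to 35044 (Control 16). Control 16 stood alone at the top, since Control 7, the next Control rat, had 14952. The ratio was 13.59 ± 0.37 on the log2 scale in TPN (SD, n = 5) and 13.65 ± 0.73 in Control (SD, n = 6). The group difference was fitted with limma over 69 microRNAs with both arms, named alike but for 5p and 3p, averaging at least 1 CPM. Of these pairs 0% were called, and 1.45% had an unadjusted p under 0.05. For miR-21 the difference was -0.05 ± 0.39 (SE, limma, adjusted p = 0.944). An exact 2-sided permutation test over the rats gave p = 0.944. Without Control 16 the difference was 0.22 (exact permutation p = 0.310), and without Control 5, 12 and 19 it was -0.47 (exact permutation p = 0.464). As a part of all miR-21 reads, the 3p arm made up 28.5 of 1000000 reads in Control 16 (exact 95% interval 13.7 to 52.5), whose interval overlapped those of TPN 15 and TPN 16 only.

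Among the 69 microRNAs with both arms named alike, each averaging at least 1 CPM, miR-21 was the most one-sided, whichever arm was the larger. Arms with differing names, such as let-7a-5p and let-7a-1-3p, were not paired. MicroRNAs with a rarer lesser arm were not ranked and could be more one-sided. The abundant miR-101b-3p (47848 CPM in Control, 30220 CPM in TPN), for example, had no ranked pair. The mean log2 ratio of miR-21, 13.62, lay beside a median absolute log2 ratio of 3.82 over the pairs. Of the 42 pairs with more 5p than 3p reads, the next were miR-192, a hepatocyte microRNA (13.12), miR-99a (10.76) and miR-26b (10.35). First place over miR-192 was not larger than the spread between rats: the log2 ratio of miR-21 exceeded that of miR-192 in 6 of 11 rats, by a mean of 0.50 ± 1.14 (SD, n = 11). The ratio of miR-21 was steadier from rat to rat than that of most pairs. Its SD was 0.57 (log2) against a median of 0.75, and 46th of 69 in order of falling SD. Counting error of the lesser arm adds to these SDs, differs between pairs and was not separated. The lesser arm averaged 7.12 CPM in miR-21 and 2.72 CPM in miR-99a. The SD of miR-192 was 1.20 and that of miR-99a, the largest of all pairs, 2.67.

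**Figure D2:**
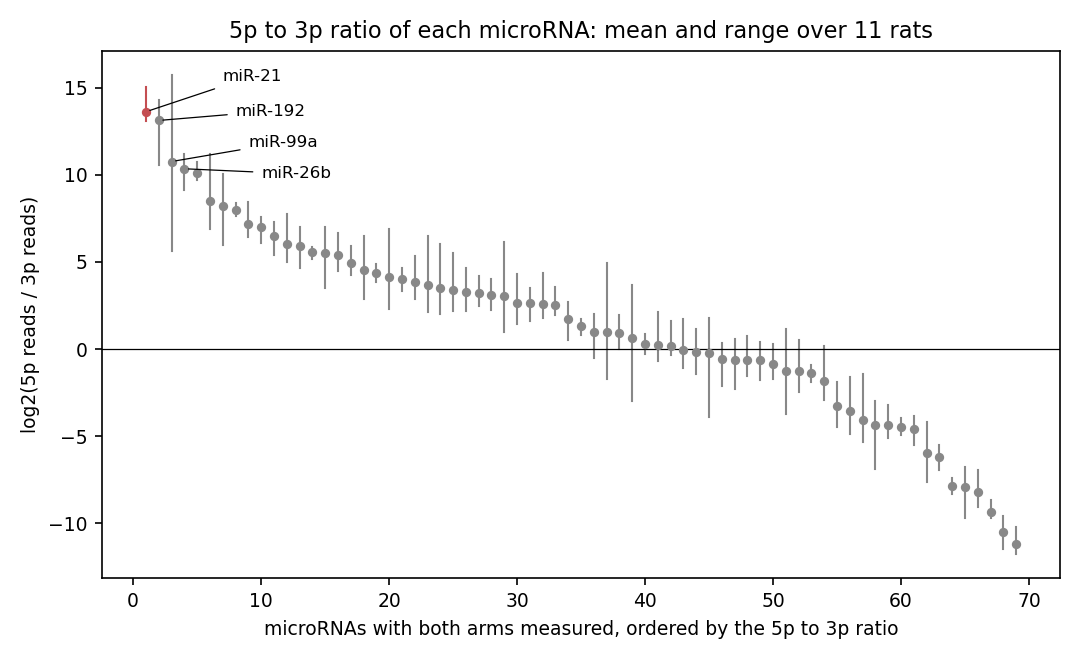
Log2 ratio of 5p to 3p reads (0.5 reads added to each arm), ordered by mean, for the 69 microRNAs with both arms named alike. Each arm had a mean of at least 1 CPM. Points are means and lines the range over 11 rats. miR-21, in red, has the highest mean at 13.62, and its range of 13.08 to 15.03 overlaps that of miR-192.

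Over the 11 rats the arms varied in the same direction. On the log2(CPM + 1) scale Pearson's r between miR-21-5p and miR-21-3p was 0.789 (permutation p = 0.0149) and Spearman's rho 0.673 (permutation p = 0.0279). With group means removed r was 0.788 (permutation p = 0.0151), and without Control 5, 12 and 19 it was 0.834 (n = 8, permutation p = 0.0277). Control 7 was highest and Control 16 lowest in both arms. Without those 2 rats, the farthest from the median of miR-21-5p, r fell to 0.504 (n = 9, permutation p = 0.171). The p under 0.05 was thus not kept without both. Leaving them out also narrows the range of miR-21-5p, so the fall cannot tell whether the other 9 rats share the relation. Without Control 7 alone r was 0.780, and without Control 16 alone 0.788.

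**Figure D3:**
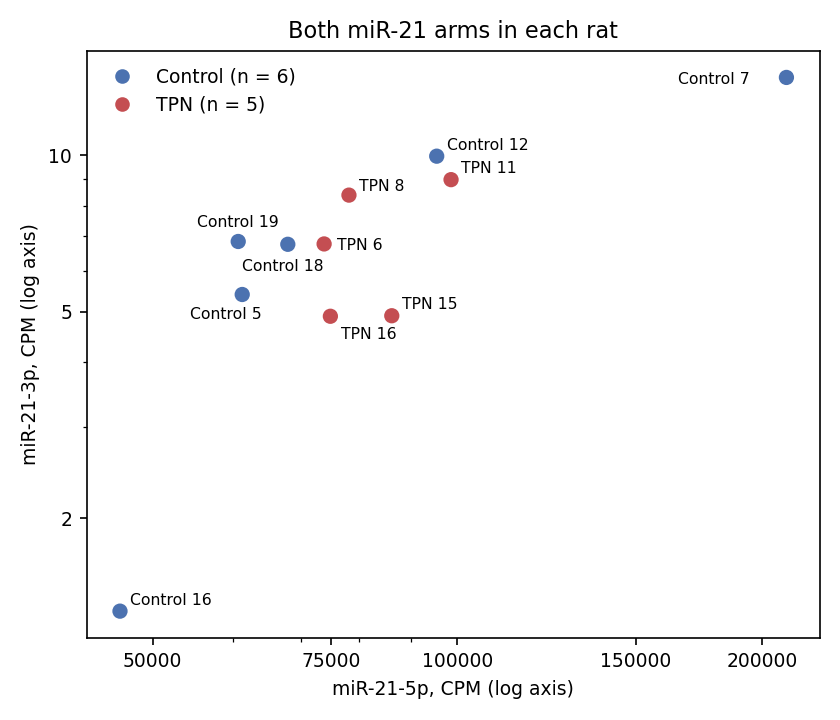
Level of miR-21-3p against level of miR-21-5p in each rat, both in CPM on log axes. Control 7 (211294 and 14.1 CPM) and Control 16 (46416 and 1.32 CPM) lie at opposite ends, and the other 9 rats form a cloud between 60735 and 98547 CPM of miR-21-5p.

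The spread of miR-21-5p between rats was wider in Control than in TPN. Its SD on the log2(CPM + 1) scale was 0.77 in Control and 0.17 in TPN, a ratio of 4.47, beside a median ratio of 1.25 over the 280 rat-named rows tested; 4 of those rows had a larger ratio. Among the 24 rows that averaged 1000 CPM or more it was the largest. Control 7 carried much of this: without it the Control SD was 0.38 and the ratio 2.16, with 33 of the 280 rows above it. For miR-21-3p the ratio was 2.57, and 1.38 without Control 16. These ratios are descriptions, and the difference in spread was not tested.

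Where the libraries are scaled otherwise, both arms moved with the rest of the table. Over the 280 rat-named rows the log2 fold changes had a median of -0.26 as deposited, which became 0.099 with TMM factors and 0.91 with upper-quartile factors, and only 58 of the 280 were positive on the deposited scale, both miR-21 arms among them. Set against that median, miR-21-5p stood 0.32 higher on the deposited scale, 0.37 with TMM and 0.55 with upper-quartile scaling. miR-21-3p stood 0.32, 0.32 and 0.33 higher. The smallest adjusted p of either arm in any of the scalings and tools run on all 11 rats was 0.258 (upper quartile, with an unadjusted p of 0.0492 for miR-21-5p).

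Per library, the level of miR-21-5p was 4186 (TPN 8) to 7348 (TPN 11) times that of the median rat-named row in TPN, and in Control 2272 (Control 5) through a median of 3362 to 8806 (Control 7). Every TPN rat but TPN 8 lay above 5 of the 6 Control rats, and Control 7 lay above all TPN rats. The mean difference on the log2 scale was 0.47 (exact 2-sided permutation p = 0.199, adjusted p = 0.978 over 7 measures of miR-21). Leaving out each rat in turn gave differences of 0.34 to 0.73 and exact p-values of 0.0159 to 0.371. The lowest came without Control 7 (difference 0.73, adjusted p = 0.111 over the 7 measures) and was the only one of 11 under 0.05; the next lowest was 0.171. Without Control 5, 12 and 19 the difference was 0.23 (exact permutation p = 0.607).

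The most abundant rows can move miR-21-5p in CPM, since all rows share 1 total. miR-148a-3p ran from 37.6% to 65.0% of a library and miR-122-5p from 2.18% to 33.5%. Of the reads outside these rows, miR-21-5p held 27.7% ± 5.29 in TPN (SD, n = 5) and 23.5% ± 10.3 in Control (SD, n = 6), a difference with an exact permutation p of 0.429. Control 7 was again the highest, at 42.1%, and without it the Control mean was 19.8% ± 5.32 (SD, n = 5; exact permutation p = 0.0635, adjusted p = 0.222 over the 7 measures). Without Control 5, 12 and 19 the Control mean was 27.4% ± 13.3 (SD, n = 3), and the difference fell from 4.19 to 0.37 percentage points (exact permutation p = 0.964).

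**Figure D4:**
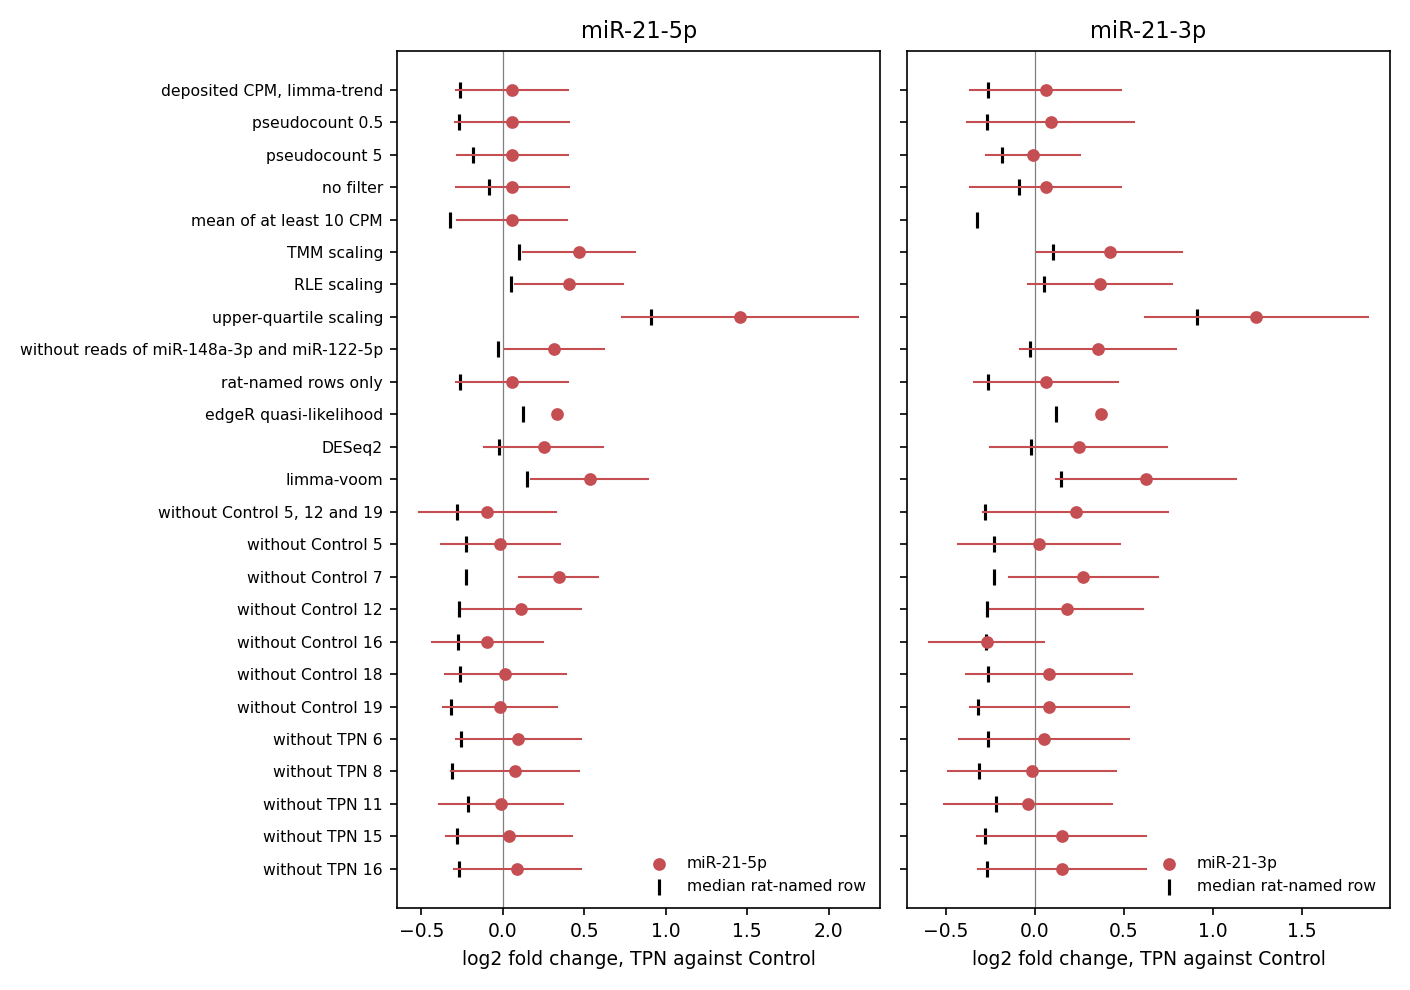
Log2 fold change of miR-21-5p and miR-21-3p (TPN against Control, red points, bars are standard errors where the tool gives one) under each scaling, filter, tool and set of rats, with the median of the rat-named rows as a black tick. miR-21-5p lies to the right of the tick in every setting drawn, from 0.14 to 0.55 above it with all 11 rats, and miR-21-3p has no value where rows needed a mean of 10 CPM.

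Markers of the cell types that liver tissue can hold are given beside miR-21-5p as summed levels. In bulk tissue, fewer cells of a type and less RNA per cell cannot be told apart. The 6 correlations with miR-21-5p over the 11 rats gave no p under 0.05 after Benjamini-Hochberg adjustment. The hepatocyte list (12 of 12 rows detected, most abundant miR-148a-3p) had the largest, with r = -0.603 (permutation p = 0.0692, adjusted p = 0.415; rho = -0.236, p = 0.487, adjusted p = 0.604) and 0.508 without Control 7 and Control 16. It summed to 565020 CPM in Control 7, the lowest of all rats, and 797417 CPM in Control 16, the highest, and to 719953 to 785829 CPM in TPN. The hepatocyte list held most of every library and shares its total with miR-21-5p. A higher level of miR-21-5p by itself therefore lowers the sum of this list in CPM. The negative r over all rats cannot be told apart from this effect and is not read as a relation to hepatocytes. The blood and immune cell list, led by miR-146a-5p, which NF-kB induces, summed to 518 to 1195 CPM in Control and 458 to 801 CPM in TPN (r = 0.349, rho = 0.236); Control 7, at 916 CPM, was 4th and Control 16, at 518 CPM, 10th of 11.

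The stellate, fibroblast and smooth muscle list, led by miR-143-3p, ran from 18657 to 37661 CPM in Control and from 12710 to 28086 CPM in TPN. Its r was -0.042 (rho = -0.318), and -0.800 without Control 7 and Control 16 (n = 9, permutation p = 0.00972, not adjusted). The red blood cell list, led by miR-451-5p, ran from 133 to 802 CPM in Control and from 31.3 to 261 CPM in TPN, with r = -0.070 (rho = -0.409) and -0.709 without those rats (n = 9, permutation p = 0.0356, not adjusted). For the biliary and epithelial list, led by miR-200b-3p, r was 0.118 (rho = 0.227) and 0.094 without those rats. For the endothelial list, led by miR-126a-3p, r was 0.098 (rho = -0.0091) and 0.421 without them. The sums of the stellate, red blood cell and endothelial lists mostly follow their most abundant rows. In Control, miR-143-3p averaged 24458 CPM, against 402 CPM for the next row of its list. For miR-451-5p these means were 374 and 6.58 CPM, and for miR-126a-3p 4857 and 351 CPM. Control 7 and Control 16 were left out by their level of miR-21-5p itself. Group means were not removed from the values without them, so these values also hold any difference between the groups. No list had a row at 0 in all libraries. miR-141-5p was at 0 in 9 libraries, and miR-155-3p and miR-451-3p in 6 each. miR-486, chosen for the red blood cell list, had no row among the 4 of that list. The part of these cell types in the level of miR-21 was not tested.

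The rows most like miR-21-5p over the 11 rats were picked by the highest Pearson's r among 167 rat-named rows that averaged 10 CPM or more, a bar that miR-21-3p did not reach. They were miR-155-5p, an inflammation-induced microRNA of immune cells (r = 0.618), miR-29a-3p, which represses collagen genes (0.554), miR-322-3p (0.531), miR-127-3p, from an imprinted gene cluster (0.483), and miR-351-5p (0.478). All 5 were highest in Control 7, as miR-21-5p was. miR-155-5p had 104 CPM in Control 7, between 10.5 CPM (TPN 11) and 35.2 CPM (TPN 8) in the other rats, and 17.2 CPM as their median when Control 16 is also left aside. Without Control 7 and Control 16 the r of the 5 rows lay between -0.554 (miR-155-5p) and 0.209 (miR-351-5p), so the likeness was to those rats' levels. The median r over the 167 rows was 0.037.

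**Figure D5:**
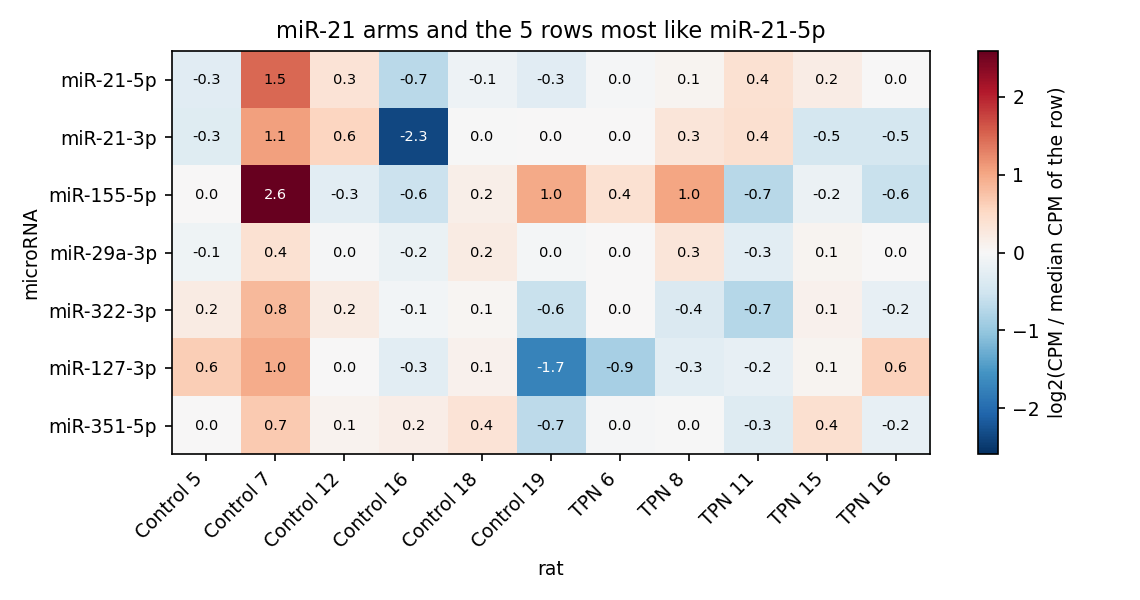
Log2 ratio of each rat's CPM to the median of the row for both miR-21 arms and the 5 rows most like miR-21-5p; red is above and blue below the row's median. Control 7 is the highest rat in all 7 rows, and Control 16 is the lowest only in the miR-21 arms.

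For miR-21-3p, the most like of 168 rows was miR-21-5p itself (r = 0.789). Next came miR-466b-2-3p and miR-466b-4-3p, which have identical deposited values (0.688), miR-146a-5p (0.645) and miR-32-5p (0.628). miR-146a-5p, a brake on NF-kB signalling, was the one of these other rows that kept a similar value without Control 7 and Control 16 (r = 0.621, n = 9), and its group-centred r was 0.785. Its mean was 441 CPM in TPN and 627 CPM in Control, with a log2 fold change of -0.48 ± 0.26 (SE; limma-trend, adjusted p = 0.296). The other rows fell to between -0.036 (miR-32-5p) and 0.196 (the miR-466b rows).

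The wider list of microRNAs linked to liver injury, inflammation and fibrosis had 29 rows above the filter, without miR-21, and 0 of 29 passed in either direction, as for 0% of all rows. Of these, 28 had negative log2 fold changes and 1 a positive one, with a median of -0.28. The median over all 535 rows was -0.56, and that over the 280 rat-named rows -0.26, where 222 were negative. The 4 most abundant were miR-122-5p, the hepatocyte microRNA (-0.03 ± 0.78), miR-192-5p (-0.11 ± 0.27), miR-378a-3p, a regulator of energy metabolism (-0.034 ± 0.22), and miR-146a-5p, given above. With 0.06 each, both miR-21 arms had larger values than all 29 rows on the deposited scale, of which the highest was 0.038, but their standard errors of 0.34 and 0.42 exceed these distances.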

How the data were processed

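Per the labels' protocols, total liver RNA was extracted with TRIzol and sequenced on an Illumina HiSeq instrument. The authors deposited 1 table in CPM, with 1 column per rat, each summing to 1000000. DESeq2 is named in the submitters' processing notes without a version or role. The sources used here do not give the trimming, aligner, microRNA database or build. All non-zero values (100%) were whole multiples of the smallest value of their column within 0.001, so reads were recovered. A count of 0 allows 3 reads, which is 0.203 to 2.14 CPM between the deepest and the shallowest library. No libraries looked like repeats of each other (smallest chi-square over its degrees of freedom 142).

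The test was limma-trend on log2(CPM + 1) for the rows that averaged 1 CPM or more (R 4.3.3, limma 3.58.1), without covariates, on the deposited scale. The arm ratio was fitted with limma on log2((5p reads + 0.5)/(3p reads + 0.5)). Single values were compared with exact 2-sided permutation tests (462 regroupings, smallest p 0.00216), and correlations with 100000 permutations. edgeR 4.0.16, DESeq2 1.42.0 and limma-voom on the recovered reads, other scalings, filters and pseudocounts, and leaving out libraries were alternatives. A test on ranks was added after seeing the data. The fits were tested on simulated data. Sequences come from RefSeq (GRCr8) and were folded with RNAfold 2.7.2. Figures were drawn with matplotlib 3.10.9.

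Named rows were both arms, rows sharing a seed, the 5 rows most like each arm, the 3 next arm pairs, the most abundant row of each cell type list and the 4 most abundant of the injury list. Members and lists were chosen with earlier results of these data known; any further names were picked with their values in view.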

Additional observations from a re-analysis of the deposited data

Results flagged for a closer look

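A rat's value was picked out where its gap to the nearest rat of its group, as a part of the group's range, passed Dixon's 95% critical value (0.625 for 6 rats, 0.71 for 5). Of 18 sets of values looked at, 3 were picked out. For normally distributed values chance alone picks out about 1 in 20. The gaps of these 3 were taken on CPM and read ratios, not on the log2 scale. A gap at the top of a group, as in all 3, is a smaller part of the range on the log2 scale. The count of 3 therefore cannot be set against that rate.

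The level of miR-21-5p in Control 7 was 211294 CPM, against 95385 CPM in the next Control rat, with a gap of 0.703 of the range. The reads of miR-21-5p per read of miR-21-3p numbered 35044 in Control 16, against 14952 in the next, with a gap of 0.768 of the range; the ratio rests on 10 reads of miR-21-3p. The red blood cell list summed to 261 CPM in TPN 6, against 88.4 CPM in the next TPN rat, with a gap of 0.751 of the range.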

How the results depend on the processing

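No setting brought either miR-21 arm or their ratio past the threshold. Under the other scalings the log2 fold change ran from 0.32 to 1.46 for miR-21-5p and from 0.36 to 1.24 for miR-21-3p. The lowest came with reads of miR-148a-3p and miR-122-5p set aside, and the highest with upper-quartile factors. On the deposited scale the group differences were near 0 and their signs were not stable. There the log2 fold change of miR-21-5p was -0.095 without Control 5, 12 and 19. It was -0.095 to 0.34 when each rat was left out in turn, with 4 of 11 negative. That of miR-21-3p was -0.0092 with a pseudocount of 5, and -0.27 to 0.27 when each rat was left out, with 3 of 11 negative. On ranks, miR-21-3p was lower in TPN by a mean rank difference of -0.733 (exact permutation p = 0.792) and miR-21-5p higher by 2.2 (exact permutation p = 0.329). The log2 ratio of the arms differed by 0.11 with 5 reads added, and by -0.18 to 0.22 when each rat was left out. The cause was not tested. The correlation between the arms kept its direction and its side of the threshold with group means removed, with reads of miR-148a-3p and miR-122-5p set aside and without Control 5, 12 and 19, and ranged from 0.780 to 0.821 when each rat was left out. Without both Control 7 and Control 16 it kept its direction but not its side of the threshold (r = 0.504, permutation p = 0.171). DESeq2 called 5 rows higher and 108 lower where the other settings called 0, also when each rat was left out (0 to 0). With a mean of at least 10 CPM, miR-21-3p and the arm ratio had no value. No paired analysis was possible because the groups share only the rat number 16 in the labels. Depth limits miR-21-3p, at 10 to 144 reads, and not miR-21-5p.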
